A study of Homo sapiens with 15 samples.

Results

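Transcripts of 10 subunit genes of the vacuolar H+-ATPase (V-ATPase) were followed in HT-1080, a human fibrosarcoma cell line, in 15 RNA sequencing libraries. The genes were chosen by symbol: ATP6V0A1, ATP6V0A2, ATP6V0B, ATP6V0C, ATP6V0D1, ATP6V0D2, ATP6V0E1, ATP6V1A, ATP6V1B2 and ATP6V1H. All 10 were matched in the table of 60670 genes, and all 10 passed the filter on low counts that kept 18563 genes for testing. The study asked how GNF-7, a tyrosine kinase inhibitor named in its title as an activator of the stress kinase GCN2, acts on senescent cells. Each of 5 groups held 3 libraries. Cycling HT-1080 cells received the vehicle DMSO and carry the time label 6 h. The other groups were HT-1080 cells in which a dominant negative mutant of the telomere protein TRF2 (gene TERF2) had been expressed for 6 days to uncap telomeres and induce senescence. These senescent cells received DMSO or 1 uM GNF-7, each for 6 h and for 24 h. All groups were grown in DMEM with tet-free serum at low oxygen. The labels do not say whether cycling cells carried the TRF2 construct without induction, and no group of cycling cells given GNF-7 was analysed here. The labels call the libraries biological replicates but do not say that they came from separate cultures, so p-values measure the spread between these libraries. HT-1080 is a single tumour line and stands for no other tissue.

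The V-ATPase is a rotary proton pump. Its cytosolic V1 sector splits ATP, and the turning of a central stalk drives protons through the membrane-bound V0 sector into lysosomes, endosomes, the Golgi and secretory vesicles, which acidifies them. Several subunits exist as alternative paralogues that differ between tissues, and the enzyme also serves as a platform on the lysosome for amino acid sensing by mTORC1. Many lysosomal and V-ATPase genes carry a short palindromic promoter motif, the CLEAR element, which is read by the transcription factors TFEB, TFE3 and MITF.

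Promoter windows are shown first because they let the members be compared with that motif. RefSeq windows (GRCh38.p14, 250 bases before to 50 after the annotated start) were matched for 5 of the 10 members, namely ATP6V0A1, ATP6V0A2, ATP6V0B, ATP6V0C and ATP6V0D1. The CLEAR core CACGTG and its longer form TCACGTGA, which contains the core, are their own reverse complements, so a search of 1 strand covers both. TGATGNAA, the core of the element bound by ATF4 with C/EBP factors, was searched on both strands. CACGTG occurred in 7.26% of all 35116 windows of this length, TCACGTGA in 0.98% and TGATGNAA in 3.62%. ATP6V0B held CACGTG at 2 places, starting 57 and 39 bases before the start site. ATP6V0D1 held TCACGTGA once, with its CACGTG core starting 59 bases before the start. GENCODE 29 places the start of both genes further upstream, at 43974487 for ATP6V0B and at 67481237 for ATP6V0D1, so that all these motifs lie within the bounds of the genes in that annotation. The windows of ATP6V0A1, ATP6V0A2 and ATP6V0C held none of these motifs, and TGATGNAA was in none of the 5 members' windows. A match is a description of letters and not of a factor bound there. The windows of ATP6V0B (chr1:43974710-43975009, plus strand), ATP6V0D1 (chr16:67481108-67481407, minus strand) and, as a window without a match, ATP6V0A1 (chr17:42458628-42458927, plus strand) read as follows, 5′ to 3′ on the gene's strand, with the motifs in capitals.
ATP6V0B: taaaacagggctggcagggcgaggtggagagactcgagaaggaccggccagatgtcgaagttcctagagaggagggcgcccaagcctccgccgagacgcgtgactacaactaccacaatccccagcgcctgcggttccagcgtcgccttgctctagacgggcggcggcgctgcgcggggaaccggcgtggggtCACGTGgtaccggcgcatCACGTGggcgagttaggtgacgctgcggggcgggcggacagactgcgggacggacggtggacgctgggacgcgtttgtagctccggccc
ATP6V0D1: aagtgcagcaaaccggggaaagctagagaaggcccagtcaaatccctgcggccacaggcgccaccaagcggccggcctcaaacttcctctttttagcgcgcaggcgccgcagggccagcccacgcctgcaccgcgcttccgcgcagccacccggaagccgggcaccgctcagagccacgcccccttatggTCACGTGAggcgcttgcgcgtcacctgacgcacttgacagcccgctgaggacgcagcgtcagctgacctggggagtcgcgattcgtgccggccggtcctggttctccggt
ATP6V0A1: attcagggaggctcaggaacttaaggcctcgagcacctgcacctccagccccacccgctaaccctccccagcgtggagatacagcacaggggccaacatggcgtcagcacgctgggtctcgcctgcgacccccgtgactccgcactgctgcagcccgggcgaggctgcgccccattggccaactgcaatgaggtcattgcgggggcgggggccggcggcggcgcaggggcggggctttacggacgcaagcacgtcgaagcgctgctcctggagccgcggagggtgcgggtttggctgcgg

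Library totals ranged from 25991007 to 32323393 counts, and a member had 25 to 5274 counts in a library. TERF2, the gene whose mutant form was expressed, was at 58.2 CPM (a gene's share of the library's counts, scaled by TMM factors) in cycling cells and at 132 to 287 CPM in the 4 senescent groups (means of 3 libraries), as the labels state. Counts per gene do not separate the mutant form from the cell's own. The summed TERF2 count fell with GNF-7 by 0.37 at 6 h and by 0.73 at 24 h on the log2 scale, and by 0.39 between 6 h and 24 h of vehicle. Its part in the results below was not tested. The share of counts in mitochondrially encoded genes also moved with the groups, from 3.75 to 5.01% in cycling libraries to 22.6 to 24.1% at 24 h of GNF-7, and scaling without those genes left all calls on the members as they were in every comparison, apart from the fall of ATP6V0A1 over time in vehicle given below. All 8 mesenchymal markers examined had counts in every group, with VIM between 3474 and 4460 CPM. Their summed level was 8223 to 8969 CPM at 24 h of vehicle and 6540 to 6794 CPM at 24 h of GNF-7. Against vehicle at 24 h, FN1 fell by 1.13, S100A4 by 1.21, LGALS1 by 0.67, CD44 by 0.54 and VIM by 0.12 on the log2 scale. COL6A2, TAGLN and COL6A1 were higher by 0.63, 0.79 and 0.12. S100A4 was near the floor, at 17 to 36 counts in 24 h vehicle libraries and 5 to 19 with GNF-7, and these groups overlapped. The part of this movement in the results on the members was not tested. Of 6 blood cell markers, 2 had a mean of at least 1 CPM in every group. Their group means were 2.24 to 4.35 CPM for CD68 and 2.53 to 3.32 CPM for CSF1R. CD68 rose with senescence by 0.67 on the log2 scale (edgeR adjusted p = 0.00351). Another of the 6, TYROBP, had 0 counts in all 15 libraries. In bulk libraries, fewer cells that express a gene and less RNA per cell cannot be told apart.

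The member with the widest range was ATP6V0D2 (GRCh38 chromosome 8, 85987323 to 86154228, plus strand, GENCODE 29). It encodes d2, the paralogue of the d subunit best known from osteoclasts and from acid-secreting cells of kidney and epididymis, and the d subunit couples the central stalk to the ring of proton-carrying c subunits. Cycling libraries had 1.37, 0.861 and 0.881 CPM of ATP6V0D2. Senescent cells in vehicle had 5.70, 5.40 and 5.52 CPM at 6 h and 4.82, 6.84 and 6.27 CPM at 24 h. With GNF-7 the values were 12.96, 12.75 and 12.15 CPM at 6 h and 70.6, 70.5 and 68.7 CPM at 24 h. Every senescent library was above every cycling library, and every GNF-7 library was above every vehicle library of its time point. The mean rose 5.34-fold with senescence (log2 fold change 2.44, SE 0.159, edgeR adjusted p = 2.39e-21). It was 2.28 times the vehicle mean after 6 h of GNF-7 (log2 1.19, SE 0.0996, edgeR adjusted p = 9.27e-16). After 24 h it was 11.7 times the vehicle mean (log2 3.56, SE 0.0894, edgeR adjusted p = 7.51e-42). The GNF-7 effect was larger at 24 h than at 6 h by 2.37 on the log2 scale (SE 0.138, edgeR adjusted p = 3.54e-22), whereas the 2 vehicle groups overlapped (log2 0.10, adjusted p = 0.602). From cycling cells to senescent cells after 24 h of GNF-7 the mean level of ATP6V0D2 differed 67.5-fold. Among the other 9 members, the highest group mean was 1.24 to 1.98 times the lowest, as the panels of CPM by library show. ATP6V0D2 shares 16.7% of its exon bases with the antisense gene AC023194.3, which had 0 to 4 counts in a library, and whether counting used strand is not given in the sources used here.

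**Figure D1:**
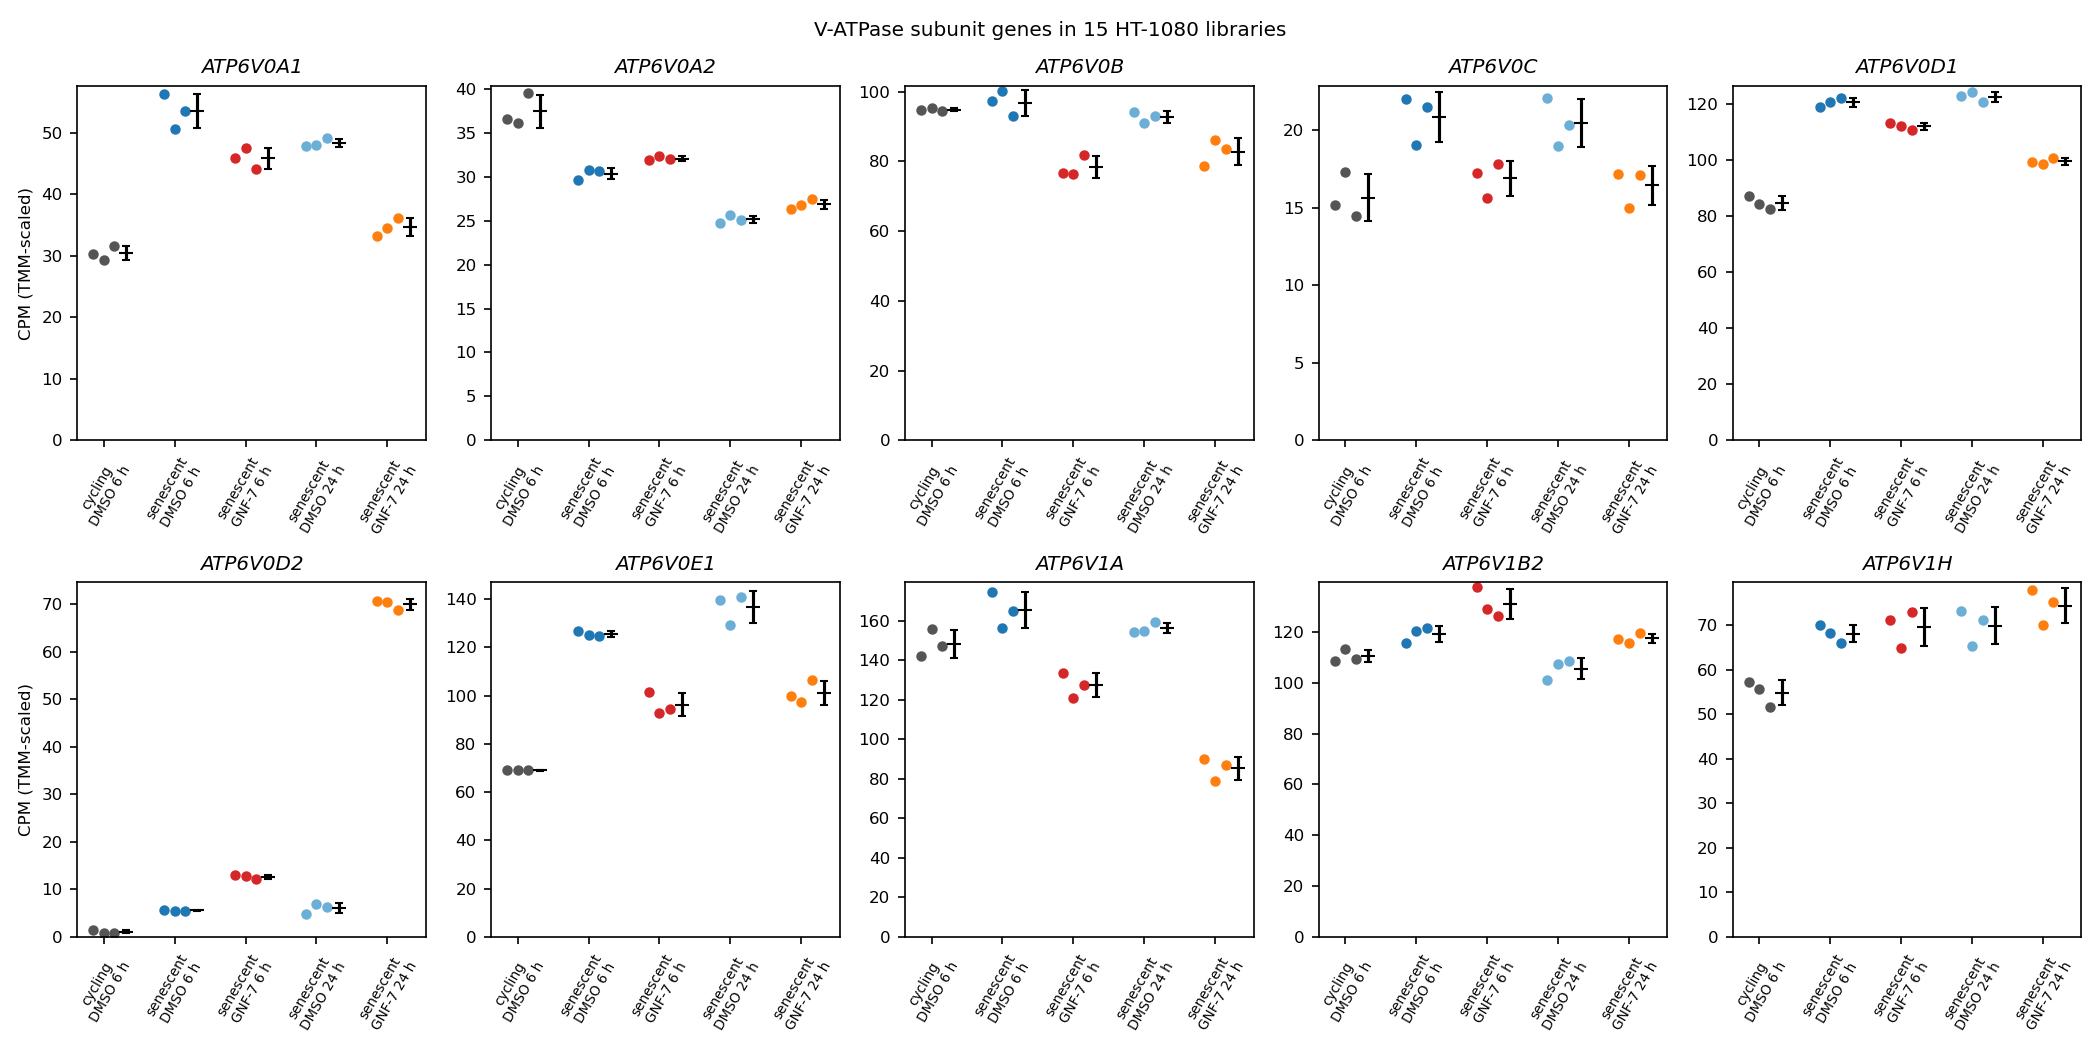
CPM (TMM-scaled, vertical axes from 0, a different scale in each panel) of the 10 V-ATPase subunit genes in the 5 groups, with a point for each of 3 libraries and a bar for the mean ± SD. ATP6V0D2 sits at 0.861 to 1.37 CPM in cycling cells and at 68.7 to 70.6 CPM after 24 h of GNF-7, while the group means of each other member differ at most 1.98-fold.

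The paralogue of ATP6V0D2, ATP6V0D1 (chromosome 16, 67438014 to 67481237, minus strand), encodes the widely expressed d1 subunit and went the other way under GNF-7. Cycling libraries had 87.2, 84.4 and 82.3 CPM of ATP6V0D1, and senescent vehicle libraries had 118.7, 120.6 and 122.1 CPM at 6 h and 122.6, 124.1 and 120.5 CPM at 24 h. GNF-7 for 6 h gave 113.1, 112.0 and 110.7 CPM and 24 h gave 99.1, 98.4 and 100.7 CPM. GNF-7 libraries thus lay below the vehicle libraries and above the cycling libraries. The rise with senescence was 0.51 on the log2 scale (SE 0.0406, edgeR adjusted p = 1.41e-17). The fall at 24 h was -0.30 (SE 0.0401, edgeR adjusted p = 2.02e-09). The change at 6 h was -0.11 (edgeR adjusted p = 0.0275), a call that was lost in 7 of 24 alternatives, among them leaving out replicate 2 or 3 of either the vehicle or the GNF-7 group (adjusted p from 0.0575 to 0.0968).

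Because the 2 d paralogues can take the same place in the enzyme, their levels were set side by side as CPM per kilobase of the principal transcript. On that scale ATP6V0D2 made up 0.848% ± 0.209 (SD, n = 3) of the summed d1 and d2 level in cycling cells. Its share was 3.13% ± 0.115 in senescent vehicle cells at 6 h and 3.31% ± 0.552 at 24 h. Under GNF-7 the share reached 7.33% ± 0.159 at 6 h and 33.1% ± 0.597 at 24 h. The summed level of the pair was 49.7 CPM per kilobase in cycling cells, 72.5, 70.4 and 73.8 in senescent cells with vehicle at 6 h, GNF-7 at 6 h and vehicle at 24 h, and 86.5 after 24 h of GNF-7. The groups compared did not overlap in this share except the 2 vehicle groups, but 3 against 3 libraries cannot give less than p = 0.1 in the two-sided exact permutation test, which is the value found (0.133 adjusted over 8 tests). The share depends on the transcript length assumed. A scale chosen after seeing the data used the length of all exons of each gene joined together. On it the share was 3.22% in cycling cells and 65.8% after 24 h of GNF-7. The order of libraries cannot change with the scale, because each gene is divided by a fixed length.

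The a subunit forms the channels through which protons enter and leave the c ring, and its paralogues direct the pump to different membranes. ATP6V0A1 (a1; chromosome 17, 42458844 to 42522611, plus strand) was at 30.3, 29.3 and 31.6 CPM in cycling cells and at 56.2, 50.7 and 53.5 CPM in senescent cells after 6 h of vehicle. At 24 h of vehicle it was at 47.9, 48.0 and 49.1 CPM. GNF-7 libraries were at 45.8, 47.4 and 44.2 CPM at 6 h and at 33.3, 34.6 and 36.2 CPM at 24 h, near the cycling level. ATP6V0A1 rose with senescence by 0.81 on the log2 scale (SE 0.0568, edgeR adjusted p = 4.94e-20) and was lower with GNF-7 at both times, without overlap between groups. Its fall was -0.22 at 6 h (SE 0.0544, edgeR adjusted p = 6.17e-04) and -0.48 at 24 h (SE 0.0562, edgeR adjusted p = 4.71e-11), a difference between times of -0.26 (edgeR adjusted p = 8.38e-03).

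ATP6V0A2 (a2; chromosome 12, 123712318 to 123761755, plus strand), a paralogue found mainly on the Golgi and endosomes and mutated in a form of cutis laxa, was the only member that fell with senescence. It was at 36.6, 36.1 and 39.6 CPM in cycling cells and at 29.7, 30.8 and 30.6 CPM in senescent cells after 6 h of vehicle, with no overlap (log2 -0.30, SE 0.0608, edgeR adjusted p = 1.27e-05). At 24 h of vehicle it was lower again, at 24.8, 25.6 and 25.1 CPM (log2 -0.27, edgeR adjusted p = 9.46e-04). Treated libraries were at 31.89, 32.36 and 31.98 CPM at 6 h and at 26.4, 26.8 and 27.4 CPM at 24 h. These lay above the vehicle libraries of the same time, but neither difference was called (log2 0.08 and 0.10, edgeR adjusted p = 0.326 and 0.197). With a filter at a mean of 5 CPM the difference at 24 h was called (log2 0.196, edgeR adjusted p = 0.00444). Per kilobase of the principal transcript, ATP6V0A2 made up 36.3% ± 0.4222 (SD, n = 3) of the summed a1 and a2 level in cycling cells and 20.8% ± 1.16 in senescent vehicle cells at 6 h. The share was 24.5% ± 0.563 after 6 h of GNF-7, 19.4% ± 0.353 at 24 h of vehicle and 26.4% ± 0.4221 after 24 h of GNF-7. Exact permutation gave the same smallest possible p = 0.1 for senescence and for both GNF-7 comparisons, and p = 0.2 between the vehicle groups. The share leaves out the a3 paralogue, encoded by TCIRG1, whose level per kilobase was above both in every group. TCIRG1 was at 38.99 CPM per kilobase in cycling cells and at 69.17 in senescent vehicle cells at 6 h. In those groups ATP6V0A1 was at 10.05 and 17.66, and ATP6V0A2 at 5.725 and 4.641.

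**Figure D2:**
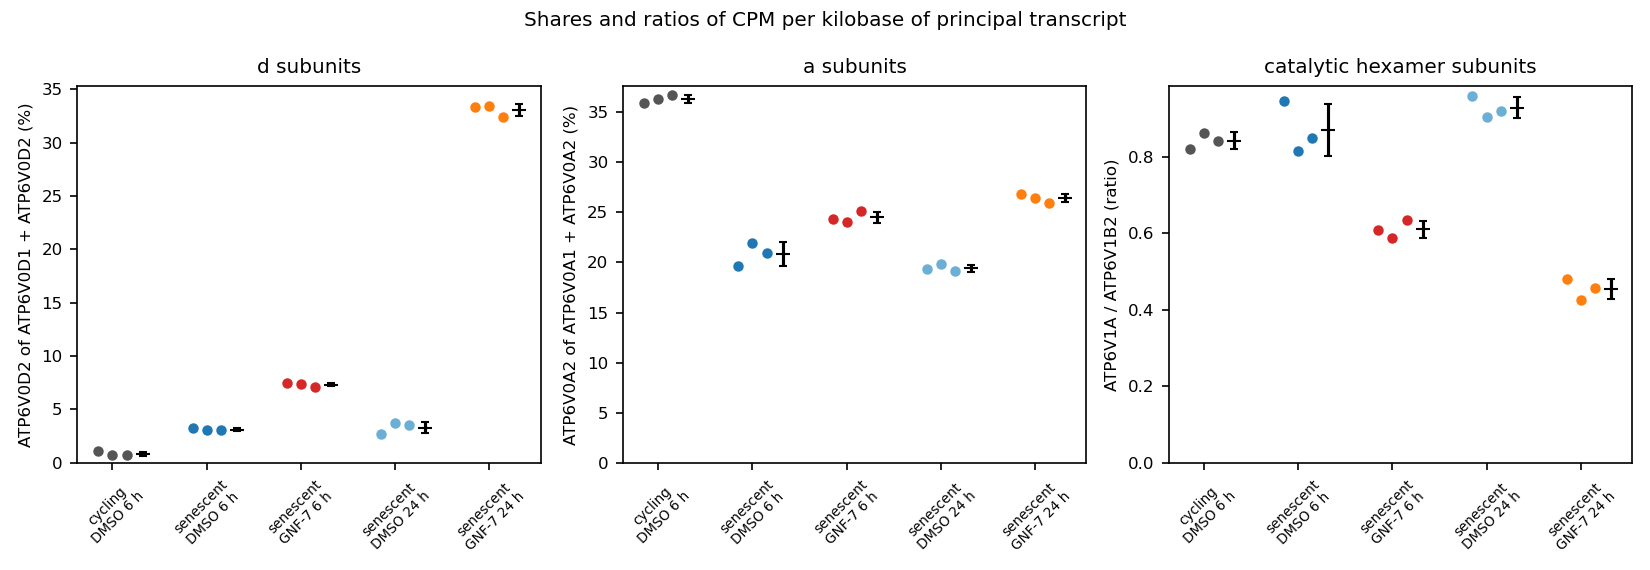
Shares and a ratio of CPM per kilobase of principal transcript in each library (points, 3 per group) with mean ± SD: the percentage of ATP6V0D2 in the d1 and d2 pair, the percentage of ATP6V0A2 in the a1 and a2 pair, and the ratio of ATP6V1A to ATP6V1B2. The d2 share is 33.1% after 24 h of GNF-7 against 3.31% in vehicle, and the ratio is 0.454 against 0.927.

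The proteolipid ring that carries protons is built from c subunits, encoded by ATP6V0C, and a single larger c″ subunit, encoded by ATP6V0B. ATP6V0B (chromosome 1, 43974487 to 43978295, plus strand) was at 94.8, 95.4 and 94.4 CPM in cycling cells and at 97.3, 100.1 and 92.9 CPM in senescent cells after 6 h of vehicle. These groups overlapped, and ATP6V0B was the only member not called between them (log2 0.03, edgeR adjusted p = 0.554). The call depended on scaling, since total counts without a composition factor gave 0.16 (adjusted p = 0.00105) and a filter at a mean of 5 CPM, after which scaling factors were computed anew, gave 0.18 (adjusted p = 2.05e-04). GNF-7 brought it to 76.7, 76.5 and 81.9 CPM at 6 h (log2 -0.30, SE 0.0442, edgeR adjusted p = 4.98e-08), below all vehicle libraries. At 24 h it was at 78.6, 86.1 and 83.7 CPM against 94.1, 91.0 and 93.2 CPM in vehicle (log2 -0.16, SE 0.0443, edgeR adjusted p = 0.00117), and that difference was not called under the 5 CPM filter (-0.06, adjusted p = 0.193).

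ATP6V0C (chromosome 16, 2513870 to 2520218, plus strand) was at 15.2, 17.3 and 14.4 CPM in cycling cells and at 22.0, 19.0 and 21.5 CPM in senescent cells after 6 h of vehicle. Treated libraries were at 17.2, 15.6 and 17.8 CPM at 6 h and at 17.2, 15 and 17.1 CPM at 24 h, below the 24 h vehicle libraries at 22.0, 19.0 and 20.4 CPM. It rose with senescence by 0.41 (SE 0.0849, edgeR adjusted p = 1.95e-05) and fell with GNF-7 at 6 h by 0.30 and at 24 h by 0.32 on the log2 scale (edgeR adjusted p = 0.00264 and 9.48e-04). The level of ATP6V0C is uncertain. It shares 57.5% of its exon bases with another protein-coding gene on the same strand, AC093525.2, which had 0 to 2 counts in a library, and has 4 processed pseudogenes with 0 to 3 counts. How reads in shared exons were counted is not given in the sources used here.

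ATP6V0E1 (chromosome 5, 172983757 to 173035445, plus strand) encodes the small e1 subunit of V0. It was at 68.9, 69.2 and 69.0 CPM in cycling cells and at 126.8, 124.9 and 124.8 CPM in senescent cells after 6 h of vehicle. The increase of 0.86 on the log2 scale (SE 0.0444, edgeR adjusted p = 3.35e-26) was the highest among the members after ATP6V0D2. Libraries with GNF-7 were at 101.5, 92.7 and 94.4 CPM at 6 h. At 24 h it was at 99.7, 97.1 and 106.5 CPM, against 139.8, 129.3 and 141.0 CPM in vehicle. GNF-7 libraries lay between the cycling and the vehicle libraries at both times (log2 -0.38 and -0.44, edgeR adjusted p = 3.81e-11 and 1.33e-13). Its rise between 6 h and 24 h of vehicle was 0.12 (edgeR adjusted p = 0.0326), which was lost when any of 5 of the 6 vehicle libraries was left out (adjusted p from 0.0552 to 0.174). The call was also lost with total counts without a composition factor (0.0129, edgeR adjusted p = 0.876) and with genes unfiltered (0.1115, edgeR adjusted p = 0.12).

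In the V1 sector, A and B subunits alternate in the hexamer that splits ATP. ATP6V1A (chromosome 3, 113747019 to 113812056, plus strand) encodes the catalytic A subunit. It was at 142.1, 155.8 and 147.0 CPM in cycling cells and at 174.6, 156.6 and 164.9 CPM in senescent cells after 6 h of vehicle. The groups came within 1 CPM of each other without overlap (log2 0.16, SE 0.0442, edgeR adjusted p = 0.00155). After GNF-7 it was at 133.5, 121.1 and 127.7 CPM at 6 h (log2 -0.38, SE 0.0444, edgeR adjusted p = 3.21e-10). At 24 h it was at 89.8, 78.8 and 87.2 CPM, against 154.5, 154.9 and 159.2 CPM in vehicle (log2 -0.87, SE 0.0457, edgeR adjusted p = 2.71e-24). Every GNF-7 library, at either time, was below every cycling library. The GNF-7 effect differed between times by -0.50 (SE 0.0636, edgeR adjusted p = 4.43e-09).

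ATP6V1B2 (chromosome 8, 20197367 to 20226819, plus strand) encodes the B2 subunit, which binds ATP without splitting it. It did not follow ATP6V1A. Cycling libraries had 108.7, 113.1 and 109.4 CPM of ATP6V1B2, and senescent vehicle libraries had 115.8, 120.2 and 121.7 CPM at 6 h and 101.0, 107.3 and 108.4 CPM at 24 h. With GNF-7 it was at 137.6, 129.0 and 126.2 CPM at 6 h and at 117.3, 115.7 and 119.4 CPM at 24 h, above all vehicle libraries of the same time. These rises were 0.13 at 6 h and 0.15 at 24 h on the log2 scale (edgeR adjusted p = 0.00639 and 0.00110). The call at 6 h was lost without replicate 1 of the vehicle group or replicate 1 of the GNF-7 group (adjusted p = 0.0549 and 0.0913). It was also lost with genes unfiltered (edgeR adjusted p = 0.0523). The rise with senescence, 0.11 (edgeR adjusted p = 0.0153), was lost without cycling replicate 1 or 3 or vehicle replicate 2 or 3 (adjusted p from 0.0525 to 0.0808).

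The ratio of ATP6V1A to ATP6V1B2, in CPM per kilobase of principal transcript, was computed after their values were seen. Its level depends on the lengths assumed, and so does which of the 2 genes appears higher. These are 4591 bases for ATP6V1A and 2875 for ATP6V1B2, against 5130 and 7816 for all exons joined. The relative change of the ratio between groups does not depend on them. Cycling cells had a ratio of 0.841 ± 0.0220 (SD, n = 3), and senescent cells in vehicle had 0.869 ± 0.0669 at 6 h and 0.927 ± 0.0275 at 24 h. In treated cells the ratio was 0.610 ± 0.0228 at 6 h and 0.454 ± 0.0268 at 24 h. The ratio was lower in all 6 GNF-7 libraries than in all 9 other libraries. It describes transcripts only, since protein was not measured here.

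ATP6V1H (chromosome 8, 53715557 to 53843558, minus strand) encodes subunit H, which silences ATP splitting in a V1 sector that has come off the membrane. It was at 57.2, 55.8 and 51.7 CPM in cycling cells and at 70.1, 68.4 and 66.1 CPM in senescent cells after 6 h of vehicle (log2 0.31, SE 0.0522, edgeR adjusted p = 3.37e-07). With GNF-7 it was at 71.2, 64.9 and 73.0 CPM at 6 h. At 24 h it was at 77.9, 70.2 and 75.2 CPM, against 73.3, 65.4 and 71.2 CPM in vehicle. GNF-7 and vehicle libraries overlapped at both times (log2 0.03 and 0.09, edgeR adjusted p = 0.669 and 0.130), and at 24 h the difference was called with a filter at a mean of 5 CPM (0.19, adjusted p = 9.68e-04) and without GNF-7 replicate 2 (0.13, adjusted p = 0.0462).

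Across the 10 members, senescence against cycling in vehicle gave 8 higher, 1 lower and 1 not called, where 35.6% of all genes tested were called higher and 34.4% lower. Their median log2 fold change was 0.36, against 0.06 for all genes. GNF-7 at 6 h gave 2 higher (ATP6V0D2 and ATP6V1B2), 6 lower and 2 not called, where 17.9% of all genes were higher and 21.4% lower, with a median of -0.16 against 0.01. At 24 h there were again 2 higher, 6 lower and 2 not called, where 29.3% of all genes were higher and 29.7% lower, with a median of -0.23 against 0.04. In the main fit the members called were the same 8 at both times, in the same directions, and the 6 h and 24 h comparisons share no library. Such repeats were common over all genes tested, where 80.94% of the genes lower at 6 h and 72.79% of those higher at 6 h were called in the same direction at 24 h. In the other order, 58.37% of the genes lower and 44.41% of those higher at 24 h had been called so at 6 h. The set of 8 members did not hold with a filter at a mean of 5 CPM. There ATP6V0D1 was not called at 6 h (edgeR adjusted p = 0.233) and ATP6V0B was not called at 24 h (edgeR adjusted p = 0.193). ATP6V0A2 and ATP6V1H were called higher at 24 h with that filter (edgeR adjusted p = 0.00444 and 9.68e-04).

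The GNF-7 effect differed between times for 4 members. ATP6V0D2 was higher, and ATP6V0A1, ATP6V0D1 and ATP6V1A were lower, where 12.8% of all genes had a higher and 18.0% a lower effect at 24 h. Between the vehicle groups 1 member was higher (ATP6V0E1) and 2 were lower (ATP6V0A2 and ATP6V1B2), where 9.26% of all genes were higher and 9.29% lower. The change of ATP6V0A1 there was -0.15 (edgeR adjusted p = 0.0502) and was called in 11 of 24 alternatives, scaling without mitochondrial genes among them (adjusted p = 0.0369). Groups did not overlap for 9 members with senescence, 9 with GNF-7 at 6 h, 9 at 24 h and 4 between vehicle groups, and the corresponding shares of all genes were 71.5, 47.7, 63.2 and 32.9%.

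**Figure D3:**
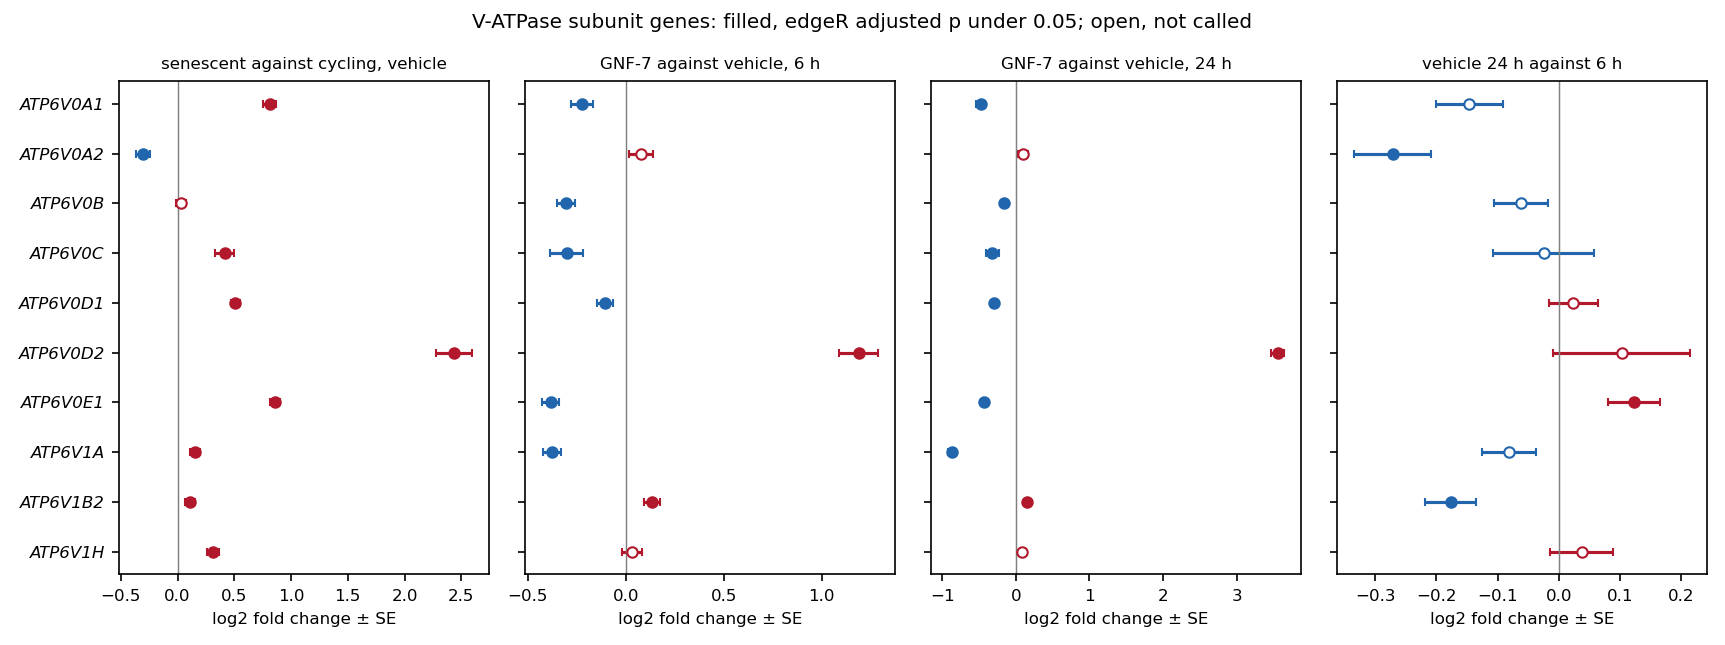
Log2 fold changes (points) ± SE of the 10 members in 4 comparisons, from the edgeR fit of all 15 libraries, with a different horizontal scale in each panel. Filled points have an adjusted p under 0.05. ATP6V0D2 is to the right of the other members at 2.44 with senescence, 1.19 at 6 h of GNF-7 and 3.56 at 24 h, and ATP6V1A is at -0.87 at 24 h.

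Senescence and 24 h of GNF-7 can be read against each other because they share no library. Of the 8 members that were higher in senescence, 5 were lower with GNF-7 at 24 h (ATP6V0A1, ATP6V0C, ATP6V0D1, ATP6V0E1 and ATP6V1A), which is 62.5% of the first list and 83.3% of the 6 members lower at 24 h. Over all genes tested, 1320 genes were in both lists, 19.95% of those higher in senescence and 23.97% of those lower at 24 h. The lists themselves differ in size, with 35.6% of all genes higher in senescence and 29.7% lower at 24 h. Among the 10 members 8 were higher and 6 were lower, so an overlap of 5 can follow from these counts alone. The other 3 members higher in senescence were ATP6V0D2 and ATP6V1B2, which were higher again with GNF-7 at 24 h, and ATP6V1H, which was not called.

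Per kilobase of principal transcript, the order of the members changed between groups. The order within a group depends on the length assumed, and only the principal transcript was used for it. That length is 1298 bases for ATP6V0B, against 3535 for all its exons joined. For ATP6V0E1 it is 1433 against 1623, for ATP6V0D1 1716 against 8212 and for ATP6V0D2 2446 against 3010. In cycling cells ATP6V0B was highest at 73.1 CPM per kilobase, ahead of ATP6V0D1 at 49.3 and ATP6V0E1 at 48.2, whose libraries overlapped. ATP6V0D2 was last at 0.424. In senescent vehicle cells at 6 h ATP6V0E1 was first at 87.6 CPM per kilobase, followed by ATP6V0B at 74.6 and ATP6V0D1 at 70.2, and ATP6V0D2 was still last at 2.26, below ATP6V0A2 at 4.64. After 24 h of GNF-7 ATP6V0E1 was first at 70.5, and ATP6V0D2 had moved to rank 6 at 28.6, between ATP6V1H at 37.1 and ATP6V1A at 18.6, with no overlap with either. The summed level of all 10 members was 298.1 ± 4.23 CPM per kilobase (SD, n = 3) in cycling cells, and 386.1 ± 3.40 and 383.4 ± 7.35 in senescent vehicle cells at 6 h and 24 h. In treated cells it was 340.3 ± 8.40 at 6 h and 346.9 ± 6.72 at 24 h. Without ATP6V0D2 the sum was 335.2 ± 8.37 at 6 h and 318.3 ± 7.13 at 24 h of GNF-7.

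The remaining subunits were examined as a list of 15 genes, of which 12 passed the filter. The kidney B1 subunit gene ATP6V1B1 had at most 1 count in a library, ATP6V1C2 at most 5 and ATP6V1G3 at most 3. With senescence 8 of the 12 were higher and 2 lower, with a median log2 fold change of 0.59 against 0.06 for all genes. Of all genes 35.6% were called higher and 34.4% lower. The accessory subunit genes ATP6AP2 (the prorenin receptor) and ATP6AP1 were higher by 1.20 and 0.84, and TCIRG1, which encodes the a3 paralogue used by osteoclasts, by 0.83 (edgeR adjusted p = 1.88e-35, 3.96e-22 and 6.78e-07). The stalk subunit genes ATP6V1G1, ATP6V1F and ATP6V1E1 rose by 0.60, 0.57 and 0.53. ATP6V1G2 rose by 1.08 from a low level of 1.31 CPM, and ATP6V1C1 by 0.14. The 2 that fell were ATP6V1E2, a paralogue best known from testis, by 0.55 and ATP6V0E2 by 0.38 on the log2 scale. ATP6V1D and the kidney a4 gene ATP6V0A4, whose mean stayed under 1 CPM in every group, were not called.

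With GNF-7 at 24 h, 5 of these 12 subunits were higher and 5 lower, with a median of -0.02 against 0.04 for all genes. Of all genes 29.3% were called higher and 29.7% lower. The 5 subunits that were higher were all of V1: ATP6V1E2 (log2 0.55), ATP6V1G1 (0.39), ATP6V1F (0.24), ATP6V1C1 (0.20) and ATP6V1E1 (0.09). The 5 lower were TCIRG1 (-0.48), ATP6V0E2 (-0.47), ATP6AP1 (-0.23), ATP6V1D (-0.20) and ATP6AP2 (-0.13). ATP6V1G1 had 87.5 CPM ± 1.56 in vehicle and 114.3 CPM ± 3.42 with GNF-7 (SD, n = 3), and TCIRG1 had 192.7 CPM ± 7.30 and 137.8 CPM ± 17.4. At 6 h 2 were higher, ATP6V1E2 (0.70) and ATP6V1G1 (0.16), and 3 lower, TCIRG1 (-0.43), ATP6AP1 (-0.13) and ATP6V1E1 (-0.11), with a median of -0.04 against 0.01. At that time 17.9% of all genes were higher and 21.4% lower. Between times the effect was higher for ATP6V1G1, ATP6V1C1, ATP6V1E1 and ATP6V1F and lower for ATP6V0E2, where 12.8% of all genes had a higher and 18.0% a lower effect. Between vehicle groups ATP6V1D and ATP6AP2 were higher, where 9.26% of all genes were higher.

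**Figure D4:**
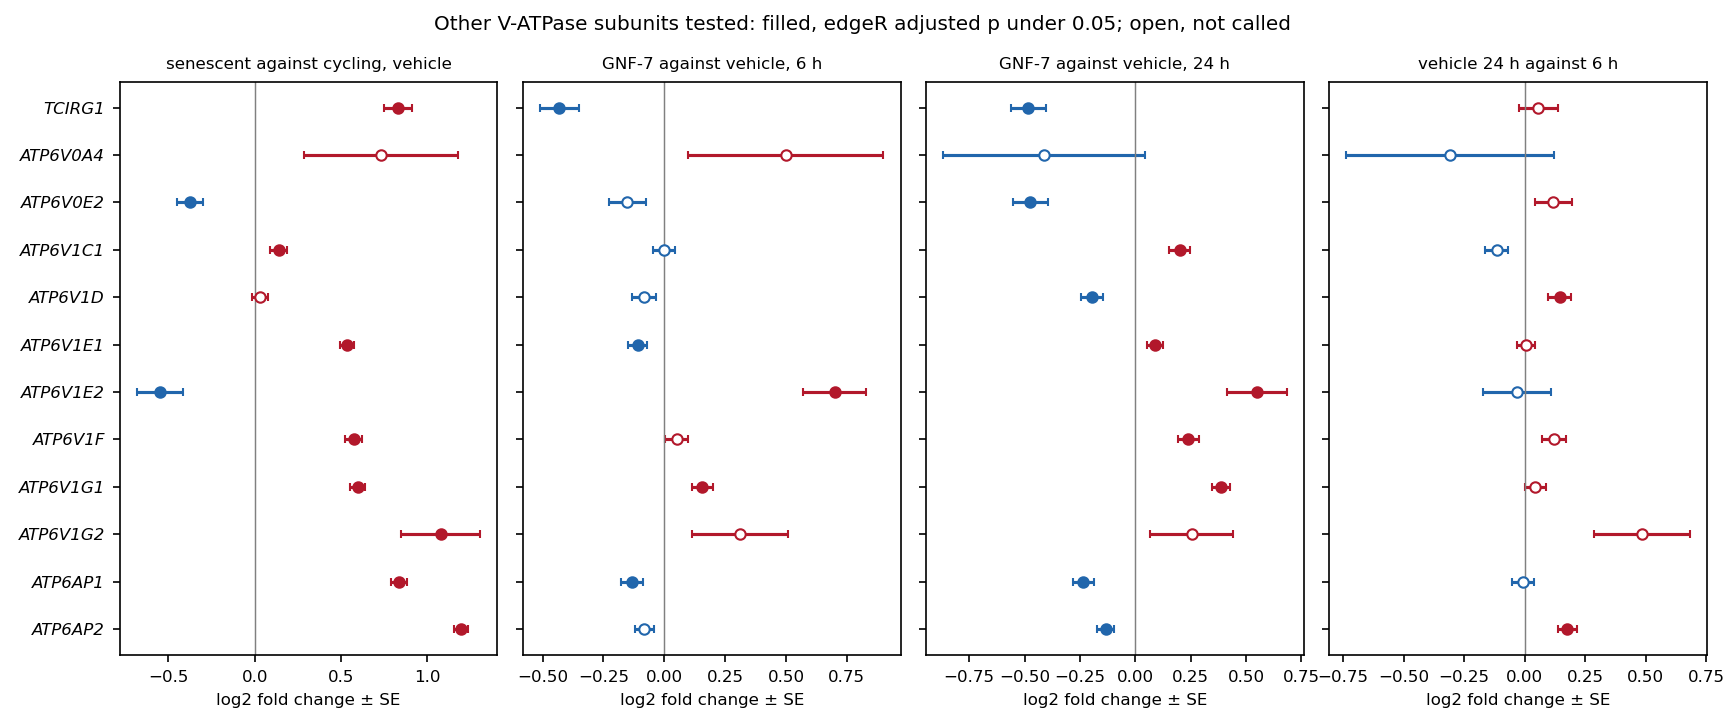
Log2 fold changes (points) ± SE of the 12 other V-ATPase subunit genes tested, in 4 comparisons from the same fit, with a different horizontal scale in each panel. Filled points have an edgeR adjusted p under 0.05. At 24 h of GNF-7 ATP6V1G1 is at 0.39 and ATP6V1F at 0.24, and TCIRG1 is at -0.48.

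Genes that assemble or regulate the pump were examined as a list of 13, of which 12 were tested. With senescence 6 were higher and 3 lower, and with GNF-7 at 6 h and 24 h 1 and 2 were higher and 4 and 5 lower. Of all genes tested, 35.6, 17.9 and 29.3% were higher and 34.4, 21.4 and 29.7% lower. The list's median log2 fold changes were 0.17, -0.04 and -0.15 in these comparisons, against 0.06, 0.01 and 0.04 for all genes. VMA21, an assembly factor of V0 in the endoplasmic reticulum, fell in all 3 comparisons, by 0.47 with senescence, by 0.21 at 6 h and by 0.46 at 24 h of GNF-7 on the log2 scale (edgeR adjusted p = 3.66e-15, 8.04e-05 and 7.60e-14). NCOA7, a TLDc-domain protein that binds the V-ATPase, was not called with senescence (0.09, adjusted p = 0.236). It rose with GNF-7 from 26.7 CPM ± 0.786 to 60.4 CPM ± 3.64 at 6 h (SD, n = 3; log2 1.18, edgeR adjusted p = 1.98e-25) and by 0.96 at 24 h. MEAK7, another TLDc-domain protein, rose by 0.54 with senescence and fell with GNF-7 by 0.24 at 6 h and by 0.56 at 24 h. TMEM9 rose by 0.36 with senescence and fell by 0.26 at 24 h.

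The lysosomal amino acid sensing platform and the TFEB family formed a list of 14 genes, all tested. With senescence 10 were higher and 4 were not called, with a median log2 fold change of 0.24 against 0.06 for all genes. Of all genes 35.6% were called higher and 34.4% lower. With GNF-7 at 6 h 2 were higher and 4 lower (median -0.03 against 0.01), where 17.9% of all genes were higher and 21.4% lower. At 24 h 3 were higher and 4 lower (median 0.01 against 0.04), where 29.3% of all genes were higher and 29.7% lower. The Rag GTPase genes RRAGC, RRAGD and RRAGA rose by 0.92, 0.90 and 0.35 at 24 h, with RRAGC at 32.3 CPM ± 0.280 in vehicle and 61.2 CPM ± 1.35 with GNF-7 (SD, n = 3). RRAGB was not called at 24 h (0.24, edgeR adjusted p = 0.0857). Of the platform's LAMTOR genes, none was called higher with GNF-7 at either time. LAMTOR5 fell by 0.45 at 6 h and by 0.29 at 24 h (edgeR adjusted p = 2.08e-10 and 3.3e-06), and LAMTOR4 fell by 0.20 at 6 h. Among the transcription factors that bind the CLEAR element, MITF fell from 28.6 CPM ± 1.72 to 7.60 CPM ± 0.555 at 24 h (log2 -1.91, edgeR adjusted p = 8.62e-29), TFEB from 18.0 CPM ± 0.608 to 9.20 CPM ± 1.38 (log2 -0.97, edgeR adjusted p = 6.07e-14) and TFE3 by 0.19. At 6 h MITF had fallen by 0.57 and TFEB was not called (-0.01, edgeR adjusted p = 0.963). The activity of these factors depends on their place in the cell, which was not measured here.

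Markers of the cells in which ATP6V0D2 is best known were read beside it. Of 6 osteoclast markers, 3 had a mean of at least 1 CPM in each senescent group, and their summed level was 6.395 to 6.885 CPM in cycling libraries, 17.6 to 18.8 in senescent vehicle libraries at 6 h, 18.0 to 20.7 with GNF-7 at 6 h, 20.4 to 22.3 with vehicle at 24 h and 33.2 to 38.4 with GNF-7 at 24 h. ACP5, the tartrate-resistant acid phosphatase, went from 12.1 CPM ± 0.845 to 26.7 CPM ± 2.37 at 24 h (SD, n = 3; log2 1.15, edgeR adjusted p = 7.60e-17), and CTSK from 3.64 to 5.16 CPM (log2 0.50, edgeR adjusted p = 0.0152). ITGB3 was lower at 24 h (log2 -0.75). The other 3 of the list, the fusion genes DCSTAMP and OCSTAMP and the calcitonin receptor gene CALCR, had at most 7, 9 and 2 counts in any library. Of 4 kidney intercalated cell markers, FOXI1 had 0 counts in all libraries and the list's sum was 0.326 to 1.17 CPM. The sum of 6 blood cell markers was 4.82 to 8.36 CPM over all libraries. The sum of 4 epithelial markers was 0.894 to 1.12 CPM in cycling and vehicle libraries, 1.33 to 2.16 CPM with GNF-7 at 6 h and 3.89 to 5.48 CPM at 24 h, of which ESRP1 made up 2.65 CPM ± 0.396 (SD, n = 3) at 24 h against 0.159 CPM ± 0.0834 in vehicle. The part of these markers in the results on ATP6V0D2 was not tested.

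The 5 genes whose log2 CPM followed ATP6V0D2 most closely, of 11216 genes with a symbol and a mean of at least 5 CPM, were RPLP0P2, ZNF117, MAP1LC3B, KCP and ZFPM2-AS1, with Pearson r from 0.989 to 0.993 over the 15 libraries. The 15 points share the 5 groups and their processing, so r is a description and carries no test. MAP1LC3B, which encodes the autophagosome protein LC3B, had means of 86.1 CPM in cycling cells, 143.4 and 150.1 in senescent vehicle cells at 6 h and 24 h, and 228.5 and 380.3 CPM with GNF-7 at 6 h and 24 h. KCP, which encodes a secreted cysteine-rich protein that binds BMP ligands, was at 0.876, 7.59, 23.7, 6.17 and 124.7 CPM in cycling cells, vehicle at 6 h, GNF-7 at 6 h, vehicle at 24 h and GNF-7 at 24 h. In that order ZNF117, a zinc finger gene, was listed at 0 and at 1.76, 3.84, 1.78 and 19.3 CPM. RPLP0P2 is a pseudogene of a ribosomal protein gene, and its counts may include reads of near-identical copies.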

How the data were processed

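The authors deposited read counts per Ensembl gene, not normalized, for the 15 libraries. Per the labels' protocols, libraries came from total RNA with a stranded mRNA kit. Per the submitters' processing notes, bcl2fastq (2.20.0.422), STAR (2.7.9a), featureCounts (1.5.1) and GRCh38 were used. The annotation release and strand setting are not given in the sources used here. Of 60673 rows, 3 lines of a broken gene entry were left out, and 60400 of 60670 genes had a symbol.

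The test was edgeR's quasi-likelihood test on the counts (4.0.16, R 4.3.3) after filterByExpr and TMM scaling, in a fit with a term for each group. Benjamini-Hochberg adjustment ran over 18563 genes, and "called" means an adjusted p under 0.05. CPM uses TMM-scaled library sizes, SE is the log2 fold change divided by the square root of F, and lengths and coordinates are from GENCODE 29. The common biological coefficient of variation was 4.64%. The code was tested on simulated counts.

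The members, lists, promoter motifs and alternatives were chosen with earlier results of these data known. Named genes are the members, all other subunits tested or listed, the 3 smallest p among called genes of each list (not all are printed), TERF2, and the 5 genes most like ATP6V0D2 (log2 of CPM plus 0.5). RRAGB, RRAGD, TFE3, TPCN2 and the marker genes printed were named after their values were seen. Markers were read as summed levels, with values from the same fit for single genes. Alternatives were RLE size factors, total counts, scaling without mitochondrial genes, DESeq2 (1.42.0), genes unfiltered or filtered at a mean of 5 CPM, limma voom (3.58.1), only the groups compared, a replicate block and leaving out each library. Libraries were compared within each group by a chi-square test of counts, and every pair differed by more than sampling noise.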

Additional observations from a re-analysis of the deposited data

Results flagged for a closer look

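The GNF-7 effect at 24 h differed from that at 6 h, by the interaction term of the edgeR fit, for 4 of the 10 members. For ATP6V0D2 the difference was 2.37 on the log2 scale (SE 0.138, edgeR adjusted p = 3.54e-22), from effects of 1.19 at 6 h and 3.56 at 24 h. For ATP6V1A it was -0.50 (edgeR adjusted p = 4.43e-09), from -0.38 and -0.87. For ATP6V0A1 it was -0.26 (edgeR adjusted p = 8.38e-03), from -0.22 and -0.48. For ATP6V0D1 it was -0.19 (edgeR adjusted p = 5.34e-03), from -0.11 and -0.30. All 3 libraries of each GNF-7 group lay on the same side of the vehicle libraries of their time for each of these 4 genes.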

How the results depend on the processing

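Of 1200 refits of a member in a comparison (10 members, 5 comparisons, 24 alternatives), 1141 kept direction and call, 22 lost the call, 22 gained it and 15 changed sign. No member that was called in the main fit changed sign. Total counts without a composition factor shifted the all-gene median from 0.06 to 0.19 with senescence and from 0.01 to -0.10 between vehicle groups, and there called 5 members, all lower, against 3. It also turned the uncalled vehicle differences of ATP6V0D1 (-0.0873), ATP6V0D2 (-0.0081) and ATP6V1H (-0.073). Of the 47 other pathway genes, 14 were called between vehicle groups and 9 without senescent vehicle replicate 2 at 6 h or replicate 3 at 24 h. The other sign changes were of uncalled values near 0. The interaction of ATP6V0A2 was -0.002 without mitochondrial genes, and that of ATP6V0C was 0.0316 with the filter at 5 CPM. With each library left out in turn, the interaction ranged from -0.0759 to 0.0445 for ATP6V0C and from -0.0136 to 0.0558 for ATP6V1B2. The vehicle difference ranged from -0.0861 to 0.029 for ATP6V0C and from -0.0088 to 0.2468 for ATP6V0D2, and the 6 h effect from -0.005 to 0.0931 for ATP6V1H. The cause was not tested.

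In the order cycling, vehicle 6 h, GNF-7 6 h, vehicle 24 h and GNF-7 24 h, the ATP6V0D2 share from CPM not divided by length was 1.21, 4.40, 10.1, 4.65 and 41.3%, and by joined exon length 3.22, 11.1, 23.5, 11.7 and 65.8%. The ATP6V0A2 share was 55.2, 36.2, 41.2, 34.2 and 43.7%, and 49.6, 31.2, 35.9, 29.4 and 38.2%. The order of libraries in each share cannot differ between the 3 scales, because the scales differ only by a fixed length per gene.

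With a replicate block, 9, 8, 8, 4 and 4 members were called with senescence, GNF-7 at 6 h, at 24 h, their difference and time in vehicle, against 9, 8, 8, 4 and 3 without it. In the labels, libraries of different groups share only a number. Over 30 pairs of equal number the correlation of deviations from group means was -0.037 to 0.058. The value of 0.058 was for replicate 1 of vehicle and of GNF-7 at 24 h. Replicate 1 of that vehicle group with replicate 2 of that GNF-7 group had -0.069. Of 15 libraries, 8 correlated best with their own number, so a shared handling of equal numbers is not excluded. At 25 counts, the low end for ATP6V0D2, counting error limits the cycling values.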

Other observations

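Channels and transporters that set lysosomal ion balance beside the pump were read as a list of 9 genes, all tested. With senescence 7 were higher and 2 were not called, with a median log2 fold change of 0.48 against 0.06 for all genes. Of all genes 35.6% were called higher. The chloride-proton exchanger gene CLCN7 and OSTM1, which encodes its β subunit, rose by 0.92 and 0.86 on the log2 scale (edgeR adjusted p = 2.14e-29 and 2.35e-25). With GNF-7 the pair parted. CLCN7 rose by 0.28 at 6 h and by 0.41 at 24 h, and OSTM1 changed by -0.23 and -0.25. CLCN7 was at 166.9 CPM ± 5.14 in vehicle and 221.4 CPM ± 9.71 with GNF-7 at 24 h (SD, n = 3), and OSTM1 at 103.3 CPM ± 4.78 and 86.6 CPM ± 0.776. CLCN6, a late endosomal exchanger gene, rose by 0.36 and 0.45 at these times, and CLCN3 by 0.30 at 24 h. Of the 9 genes, 2 were higher and 3 lower with GNF-7 at 6 h, where 17.9% of all genes were higher and 21.4% lower. At 24 h 4 were higher and 2 lower, where 29.3% of all genes were higher and 29.7% lower. Between vehicle groups 5 of the 9 were lower, where 9.29% of all genes were lower. Among them were the two-pore channel genes TPCN1 (-0.26) and TPCN2 (-0.37). TPCN2 was also lower with GNF-7 at 6 h and at 24 h (log2 -0.35 and -0.37, edgeR adjusted p = 0.0191 and 0.0119). TPCN1 was lower with GNF-7 at 6 h (log2 -0.20, edgeR adjusted p = 6.7e-05) and not called at 24 h.

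TFEC, the member of the TFEB family best known from macrophages, had a mean of 0.159 CPM ± 0.117 when cycling and of 2.29 CPM ± 0.314 in senescence with 6 h of vehicle (SD, n = 3; log2 3.76, edgeR adjusted p = 1.30e-15). It was called with GNF-7 at 6 h (log2 0.53, edgeR adjusted p = 0.0289) and not at 24 h (0.40, edgeR adjusted p = 0.0759).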
